A study of Mus musculus with 24 samples.

Results

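The genes described here drive DNA replication and mitosis. They comprise 20 replication genes (9 of origin licensing, 7 of the replication fork and 4 of nucleotide supply), 7 genes of G1 and S control, 25 mitosis genes (9 of mitotic entry and exit, 8 of the kinetochore and its checkpoint, 8 of the spindle and cytokinesis) and 2 proliferation markers, 54 in all. A gene was kept where a probe annotated to its symbol had a detection p-value below 0.01 on at least 1 of 24 arrays, which left 41 of the 54. Of these, 39 had a probe that both deposited tables assign to the gene, and they were tested among 10376 genes named and detected in the same way. The number tested differed between comparisons, since detection was required within the arrays compared. Members just inside the limit were *Pcna*, the sliding clamp of DNA polymerases, and *Ccne1*, encoding cyclin E1, each detected on 1 array, a TgUmodC147W M1 array in both cases. Outside it lay 11 genes detected on no array (*Bub1*, *Ccna2*, *Ccnb2*, *Ccne2*, *Cenpe*, *Kif20a*, *Prim1*, *Racgap1*, *Tpx2*, *Ttk* and *Ube2c*). No probe was named *Mki67* or *Ccnb1*, so the Ki-67 antigen and cyclin B1 have no value here. *Mcm3*, whose name the tables give to different probes, and *Rfc3*, named by 1 table only, were detected, and their values are given apart.

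The arrays hold whole-kidney RNA of FVB mice that carry a uromodulin transgene besides their own *Umod*. TgUmodC147W mice express HA-tagged uromodulin with the Cys147Trp mutation, which models autosomal dominant tubulointerstitial kidney disease, and TgUmodwt mice, the controls, express the HA-tagged wild-type protein from the same *Umod* promoter, so both lines are transgenic. Males of 1 month (M1), females of 1 month (F1) and females of 2 months (F2) were compared, with 4 mice in each of the 6 groups and 1 array per mouse. The promoter acts in the epithelium of the thick ascending limb, so a whole-kidney sample also holds many cells that do not make the transgenic protein, and each genotype is represented here by 1 transgenic line as far as the sources state.

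Replication origins are licensed in G1, when Cdc6 and Cdt1 load the Mcm2 to Mcm7 helicase onto DNA. E2F factors, released from retinoblastoma proteins by cyclin-dependent kinases, switch on the licensing, fork and nucleotide genes for S phase. The genes of mitosis carry CHR elements and CCAAT boxes. In resting cells and in G1 the DREAM complex holds them silent through the CHR, later in the cycle B-MYB and FOXM1 with the MuvB core activate them there, and NF-Y acts at the CCAAT boxes. Most cells of the adult kidney rest outside the cycle. Tubular cells divide while the kidney grows after birth, and enter the cycle again after injury.

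Promoters are shown to set the letters of both gene classes beside the levels that follow. RefSeq windows (build GRCm38.p6) from 250 bases before to 50 bases after the start were at hand for 44 of the 54 members and for 27025 genes in all. An E2F-type motif (TTTCCCGC, TTTGGCGC, TTTCGCGC or TTTGCCGC, on either strand, overlaps allowed) lay in the window of 6 of 7 licensing genes and of 9 of 18 replication genes, against 1 of 20 mitosis genes and 2.6% of all genes. The other replication roles had it in 3 of 7 fork windows and 0 of 4 nucleotide windows. Of the G1 and S genes 1 of 4 had it, and the window of *E2f1* did not. A CHR-type motif (TTTGAA or TTTAAA, either strand) lay in 17 of 20 mitosis windows, 5 of 18 replication windows and 30.6% of all windows. CCAAT, on either strand, lay in 17 of 20 mitosis windows and 41.1% of all windows. It was also in 10 of 18 replication windows, and in 5 of 7 of the licensing genes. Both kinds stood together in 16 of 20 mitosis windows, in 3 of 18 replication windows and in 12.2% of all windows. A match describes the letters only. The stretches below run from 180 bases before to 40 bases after the start, 5′ to 3′. In *Mcm6* and *Mcm5*, the licensing genes with the largest rise at 1 month in females, and *Cdc6*, which in females was detected on the TgUmodC147W F1 arrays alone, capitals mark E2F-type motifs, and the capital run in *Mcm5* and the first in *Mcm6* hold motifs of both strands that overlap. The windows of *Mcm6* and *Mcm5* also hold CCAAT, and that of *Mcm5* a CHR-type motif, which are not marked. In *Cdk1*, capitals mark E2F, CHR and CCAAT motifs, and in *Cdc20* and *Prc1*, mitosis genes that rose at 2 months, and *Kif22*, which was then detected on mutant arrays only, CHR and CCAAT motifs (ATTGG and TTCAAA are the other strand).
Mcm6 (chr1:128359666-128359885, - strand): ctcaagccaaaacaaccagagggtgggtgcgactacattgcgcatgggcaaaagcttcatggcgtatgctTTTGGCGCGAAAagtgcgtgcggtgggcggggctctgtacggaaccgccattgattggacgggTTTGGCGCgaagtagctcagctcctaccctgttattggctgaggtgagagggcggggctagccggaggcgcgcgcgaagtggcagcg
Mcm5 (chr8:75109329-75109548, + strand): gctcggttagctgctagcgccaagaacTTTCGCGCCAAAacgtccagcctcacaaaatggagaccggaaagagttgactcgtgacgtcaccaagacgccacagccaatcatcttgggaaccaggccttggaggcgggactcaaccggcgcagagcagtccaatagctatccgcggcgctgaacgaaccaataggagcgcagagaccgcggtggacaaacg
Cdc6 (chr11:98907971-98908190, + strand): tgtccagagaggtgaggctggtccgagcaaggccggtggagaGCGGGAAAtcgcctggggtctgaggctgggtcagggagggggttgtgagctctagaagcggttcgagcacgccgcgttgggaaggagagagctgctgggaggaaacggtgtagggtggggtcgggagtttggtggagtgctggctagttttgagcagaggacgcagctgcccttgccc
Cdk1 (chr10:69352873-69353092, - strand): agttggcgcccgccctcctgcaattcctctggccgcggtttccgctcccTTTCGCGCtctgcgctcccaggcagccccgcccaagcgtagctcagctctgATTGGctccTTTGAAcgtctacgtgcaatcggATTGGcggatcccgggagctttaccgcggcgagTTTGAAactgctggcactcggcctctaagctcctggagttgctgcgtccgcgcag
Cdc20 (chr4:118437304-118437523, - strand): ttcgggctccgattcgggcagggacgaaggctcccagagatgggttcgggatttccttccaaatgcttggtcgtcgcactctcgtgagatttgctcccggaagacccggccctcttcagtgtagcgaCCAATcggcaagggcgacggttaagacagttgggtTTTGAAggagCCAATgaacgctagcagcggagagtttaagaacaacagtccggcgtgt
Prc1 (chr7:80294271-80294490, + strand): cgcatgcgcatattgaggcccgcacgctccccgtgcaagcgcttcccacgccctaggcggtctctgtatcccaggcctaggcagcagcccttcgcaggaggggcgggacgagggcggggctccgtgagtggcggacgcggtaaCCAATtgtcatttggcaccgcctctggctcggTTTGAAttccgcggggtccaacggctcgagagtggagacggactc
Kif22 (chr7:127042381-127042600, - strand): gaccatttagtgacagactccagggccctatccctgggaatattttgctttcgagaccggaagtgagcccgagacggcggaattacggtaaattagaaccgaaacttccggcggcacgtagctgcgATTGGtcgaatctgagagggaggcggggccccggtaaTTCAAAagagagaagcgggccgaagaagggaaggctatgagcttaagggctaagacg

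On each array 15962 to 17944 probes were detected, replicates of a group correlated at 0.986 to 0.996 over probes, and no pair of arrays held identical values. With 4 arrays per group, their number sets the precision. Kidney identity was borne out by proximal tubule markers (10 of 10 detected), by 7 of 8 thick ascending limb markers and by *Umod*, at a log2 intensity of 15.66 to 15.95 on all 24 arrays. TgUmodC147W F1 replicate 2 went against its label: *Xist*, which other female arrays had at 11.66 to 12.72, was at 4.85, and the Y-linked *Kdm5d* was also at 4.85, below the 6.45 to 7.50 of the males. Results that rest on this array are given with and without it. Levels are log2 intensities after background correction, quantile normalization and the addition of 16 units, and the lowest signal of a detected probe was 6.24 to 6.74 per array. No probe's level is set against another probe's. Where no array of the dimmer group detected the probe, the fold is a bound, the mean of the brighter group over the mean, per dim array, of the higher of the probe's own signal and that array's lowest detected signal. No fold is given where this bound was under 1. The addition of 16 units also compresses the folds of dim probes. In whole-kidney RNA, fewer cells of a type and less RNA per cell cannot be told apart.

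Each array's median deviation from the mean of the 24 arrays was taken over the members of each side, replication and mitosis. For the 17 tested replication members, the 4 TgUmodwt M1 arrays stood at 0.52, 0.46, 0.57 and 0.45, and the TgUmodC147W M1 arrays at 0.41, 0.47, 0.51 and 0.51. TgUmodwt F1 arrays stood at -0.28, -0.06, -0.12 and -0.36 and TgUmodC147W F1 arrays at 0.46, 0.81, 0.34 and 0.49. At 2 months the values were -0.60, -0.63, -0.71 and -0.63 in TgUmodwt F2 and -0.49, -0.59, -0.39 and -0.59 in TgUmodC147W F2. On the replication side the TgUmodC147W F1 arrays lay beside the males and the TgUmodwt F1 arrays between the males and the older females.

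For the 15 tested mitosis members the same medians were 0.43, 0.57, 0.69 and 0.60 in TgUmodwt M1 and 1.02, 0.94, 0.55 and 0.81 in TgUmodC147W M1. In F1 they were -0.00, 0.29, -0.25 and -0.08 in TgUmodwt and 0.53, 0.66, 0.07 and 0.89 in TgUmodC147W. In F2 they were -1.14, -1.62, -1.21 and -1.18 in TgUmodwt and -0.52, -0.44, -0.60 and -0.85 in TgUmodC147W. Of the 15 mitosis members, 7 (*Cdk1*, *Aurka*, *Bub1b*, *Aurkb*, *Kif11*, *Kif22* and *Nusap1*) were detected on no TgUmodwt F2 array, so these medians rest partly on background. With each value below an array's lowest detected signal raised to that signal, an alternative chosen after seeing the data, the F2 medians were -1.10 in TgUmodwt replicate 1, -1.04 in replicates 2 and 4 and slightly higher in replicate 3, against -0.53, -0.44, -0.57 and -0.64 in TgUmodC147W, again without overlap. The F2 values of the genotypes touched on the replication side, at -0.67 to -0.60 and -0.60 to -0.38.

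**Figure D1:**
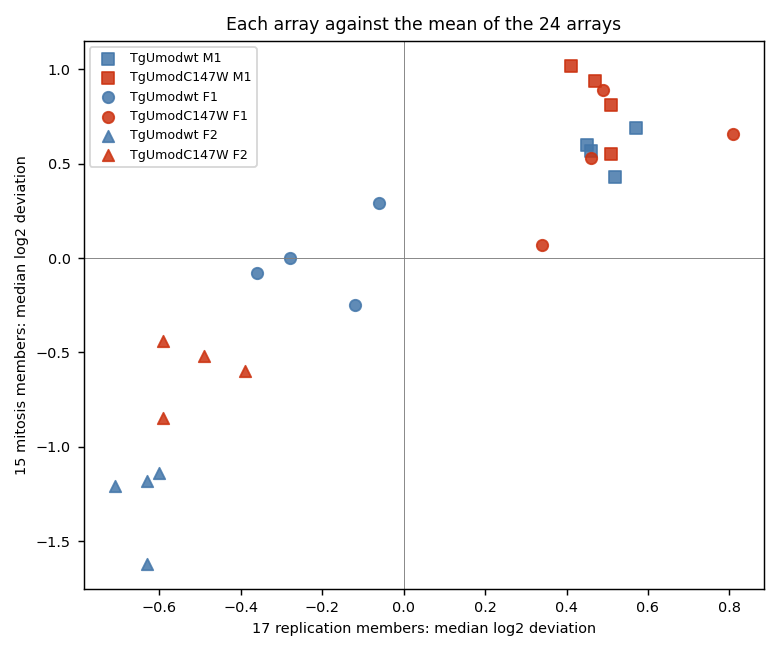
Median log2 deviation of the 17 replication members (x axis) and the 15 mitosis members (y axis) on each array from the mean of the 24 arrays, 1 point per array, blue for TgUmodwt, red for TgUmodC147W, squares M1, circles F1, triangles F2. The TgUmodC147W F1 arrays lie at 0.34 to 0.81 on the x axis, beside the M1 arrays, and the TgUmodwt F1 arrays at -0.36 to -0.06. For the TgUmodwt F2 arrays, 7 of the 15 mitosis members were below detection and are included at their measured values.

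In males of 1 month, few members differed between the genotypes. Of 39 tested, 7 rose and 2 fell in TgUmodC147W, where 21.9% of all 10128 genes tested rose and 15.4% fell, so neither share exceeded the background. The median difference was 0.06 over the members and 0.04 over all genes. Mutant arrays all lay above the controls for 5 of 39 members and 21.9% of genes, and all below for 4 members and 15.6% of genes. On the replication side 0 of 17 rose and 2 fell by limma at an adjusted p below 0.05 (median -0.03), and at an unadjusted p below 0.05 there were still 0 higher and 3 lower. On the mitosis side 5 of 15 rose and 0 fell (median 0.28), or 8 and 0 unadjusted.

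Both falls belonged to the S phase machinery. *Rfc4*, a subunit of the clamp loader, was at 8.62, 8.33, 8.52 and 8.34 in TgUmodwt and 8.16, 8.01, 7.61 and 8.08 in TgUmodC147W. All mutant arrays lay below all controls, and *Rfc4* fell 1.4-fold (SE of the log2 difference 0.12, adjusted p = 0.0112). *Tk1*, thymidine kinase of the nucleotide salvage pathway, was at 9.94, 9.84, 10.02 and 9.97 in the controls and 9.73, 9.46, 9.72 and 9.53 in the mutants. Its ranges did not overlap either, and it fell 1.26-fold (SE 0.09, adjusted p = 0.0139). *Mcm5*, part of the helicase, was at 10.22, 10.32, 10.37 and 10.22 against 10.26, 10.50, 10.58 and 10.34, overlapping, with a difference of 0.14 ± 0.09 (SE, adjusted p = 0.265). *Pcna* was at 5.86, 5.97, 5.71 and 6.47 in the controls, none of them detected, and at 5.92, 6.09, 5.87 and 6.74 in the mutants, 1 of them detected, so no fold is given (adjusted p = 0.59). The other licensing genes differed by -0.22 (*Gins2*, of the GINS helicase complex) to 0.13 (*Mcm2*), none past the test.

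Among the G1 and S genes, *Ccnd2*, encoding cyclin D2, was at 8.52, 8.80, 8.64 and 8.66 in TgUmodwt M1 and at 9.25, 9.47, 9.16 and 9.15 in TgUmodC147W M1. Its ranges were separate and it rose 1.52-fold (SE 0.10, adjusted p = 0.00073). *Cdk4*, the kinase that D cyclins activate, was at 10.66, 10.63, 10.70 and 10.57 in the controls and 10.86, 10.76, 11.08 and 10.89 in the mutants, likewise without overlap, and rose 1.2-fold (SE 0.09, adjusted p = 0.0353). *Ccnd1*, encoding cyclin D1, was at 14.20, 14.22, 14.32 and 14.24 in the controls and at 14.14, 14.07, 13.97 and 13.99 in the mutants. The mutant arrays were all lower, by a difference of -0.20 ± 0.08 that missed the threshold (adjusted p = 0.0555). Its fall passed the threshold with the authors' spline values, no background correction, median scaling, an offset of 50 or no detection filter. *Ccne1* was below detection in all controls and detected on 1 mutant array.

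The mitosis genes that rose were led by *Prc1*, which bundles microtubules of the central spindle. It was at 9.89, 10.08, 10.26 and 10.12 in TgUmodwt and 10.94, 10.75, 10.32 and 10.77 in TgUmodC147W, with no overlap, and rose 1.52-fold (SE 0.13, adjusted p = 0.00449). *Kif23*, a kinesin of cytokinesis, was at 9.84, 10.00, 9.85 and 10.00 in the controls and 10.52, 10.39, 10.44 and 10.52 in the mutants, a rise of 1.46-fold without overlap (SE 0.08, adjusted p = 0.00037). *Cdk1*, the kinase of mitotic entry, was at 8.65, 8.55, 8.48 and 8.51 in the controls against 9.07, 9.09, 8.93 and 9.12. Every mutant array exceeded every control, and the rise was 1.42-fold (SE 0.08, adjusted p = 0.000625). *Cenpa*, the histone that marks centromeres, was at 10.27, 10.28, 10.46 and 10.35 in the controls and 10.90, 10.85, 10.40 and 10.78 in the mutants, with replicate 3 of the mutants inside the control range, and rose 1.31-fold (SE 0.11, adjusted p = 0.0184). The checkpoint kinase *Bub1b* was at 7.13, 7.45, 7.43 and 7.22 in the controls and 7.73, 7.77, 7.40 and 7.73 in the mutants, again with mutant replicate 3 inside the control range, and rose 1.27-fold (SE 0.11, adjusted p = 0.0283). *Top2a*, the topoisomerase that untangles replicated DNA, was at 8.04, 8.16, 8.46 and 8.26 against 8.48, 8.30, 8.61 and 8.72, overlapping, with 0.29 ± 0.11 (SE, adjusted p = 0.0664).

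Among the 39, the count of 7 that rose became 4 without TgUmodwt M1 replicate 1 and 4 without TgUmodC147W M1 replicate 1, since *Bub1b*, *Cdk4* and *Cenpa* then missed the threshold, and 12 after scaling by array medians. Without TgUmodC147W M1 replicate 3, the lowest of its group for 10 of 15 mitosis members, 8 mitosis members rose.

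In females of 1 month, 24 of 37 members tested rose in TgUmodC147W and 0 fell, against 10.4% risen and 7.6% fallen of the 9969 genes tested, and at an unadjusted p below 0.05 limma had 32 higher and 0 lower. The median member difference was 0.58, and that of all genes 0.01, with 5123 of 9969 genes higher in the mutants. Mutant arrays all lay above the controls for 21 of 37 members and 13.6% of genes. The replication side led: 14 of 16 rose, all 16 were higher, and the median was 0.80 (0.79 with *Cdc6* at its bound). On the mitosis side 6 of 15 rose, all 15 were higher and the median was 0.52. Of 35 members detected in both genotypes 23 rose, where 9.25% of 9399 such genes did. The study's own pathway analysis singled out DNA replication and cell cycle terms on these arrays, so the counts are not independent evidence of a direction. Without TgUmodC147W F1 replicate 2, 16 of 37 rose, 12 of 16 on the replication side (median 0.71) and 3 of 15 on the mitosis side (median 0.50). The 8 members whose calls were lost were *Aurkb*, *Bub1b*, *Cdk2*, *Cdk4*, *Nusap1*, *Pold1*, *Tk1* and *Top2a*.

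**Figure D2:**
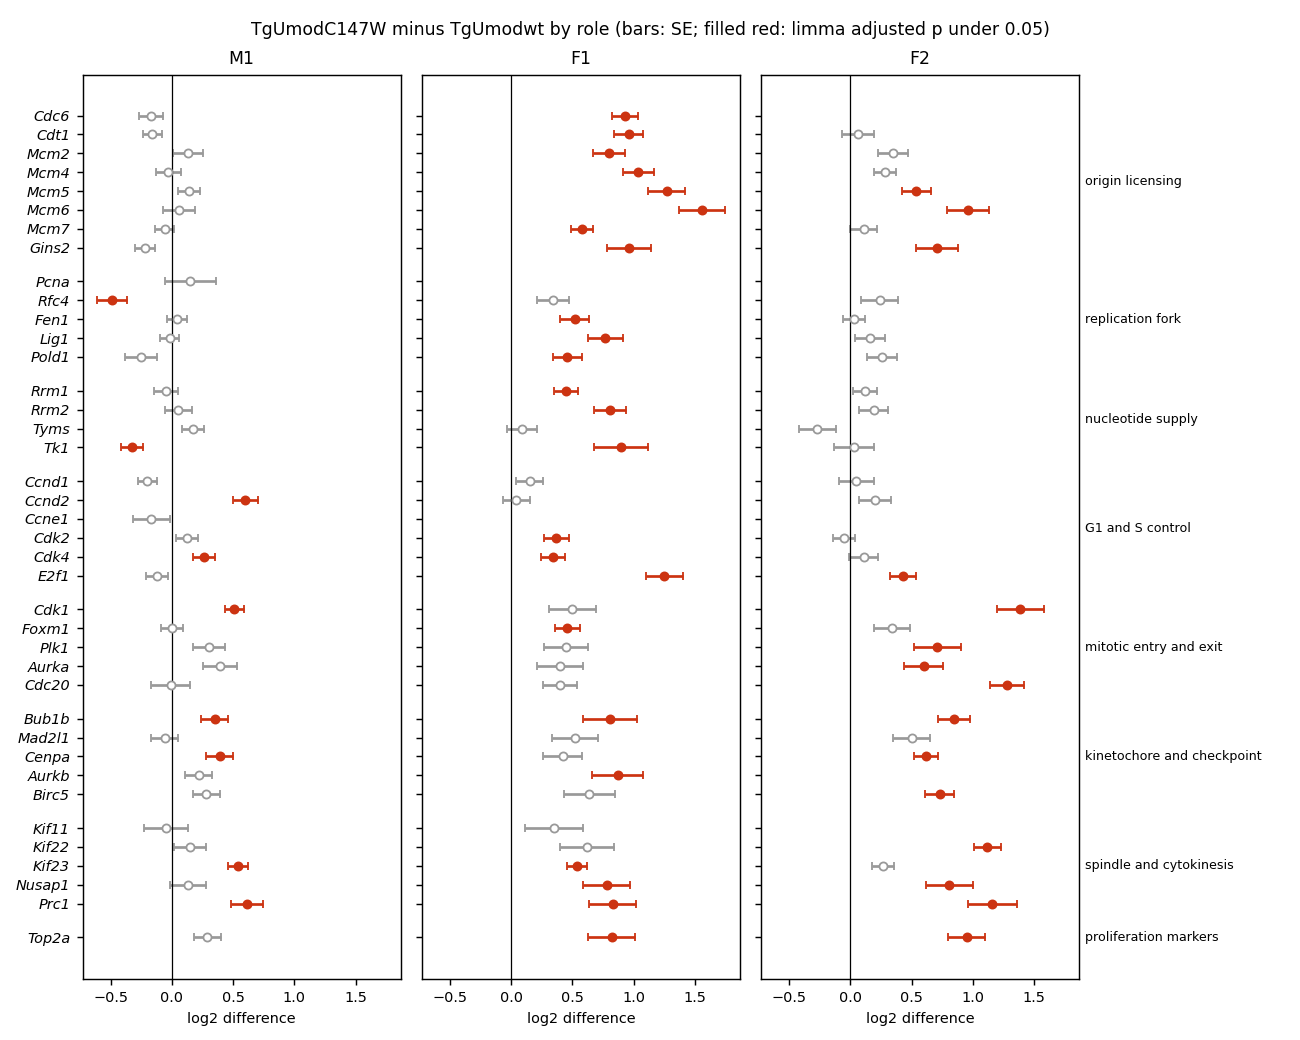
Difference TgUmodC147W minus TgUmodwt in log2 intensity for each tested member, ordered by role, in M1, F1 and F2, with bars for the SE and filled red points where limma's adjusted p was below 0.05, 4 arrays per group. Members whose probe was below detection in 1 group are drawn at their measured difference. In F1 all 8 tested licensing genes are filled, and in F2 10 of 13 mitosis genes, 5 of them below detection in TgUmodwt.

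All 8 licensing genes tested rose. *Mcm6*, a helicase subunit, was at 7.64, 8.37, 7.53 and 7.59 in TgUmodwt F1 and at 9.34, 9.68, 9.10 and 9.26 in TgUmodC147W F1. Control replicate 2 was well above its group yet below all mutants, and *Mcm6* rose 2.96-fold (SE 0.19, adjusted p = 0.000708, and 0.00223 without replicate 2 of the mutants). *Mcm5* was at 9.14, 9.45, 9.11 and 8.90 in the controls and 10.34, 10.82, 10.16 and 10.36 in the mutants, without overlap, and rose 2.41-fold (SE 0.15, adjusted p = 0.000708, and 0.00138 without that array). *Mcm4*, another subunit, was at 10.25, 10.45, 10.21 and 9.97 in the controls and 11.11, 11.54, 11.13 and 11.26 in the mutants, a rise of 2.06-fold (SE 0.13, adjusted p = 0.000757) between separate ranges. *Cdt1*, which loads the helicase, was at 8.50, 8.85, 8.82 and 8.43 in the controls and 9.56, 9.74, 9.45 and 9.71 in the mutants. It rose 1.95-fold (SE 0.12, adjusted p = 0.000815), again with no overlap. *Gins2* was at 7.23, 7.77, 7.37 and 6.92 against 8.12, 8.62, 8.06 and 8.34, all mutants higher, and rose 1.95-fold (SE 0.18, adjusted p = 0.00561). *Cdc6*, the partner of Cdt1, was at 6.07, 6.30, 6.41 and 6.16, detected on none of the 4 control arrays, and at 7.06, 7.41, 7.02 and 7.17, detected on all 4 mutant arrays, so it was at least 1.49-fold higher (adjusted p = 0.000708). *Mcm2* and *Mcm7* completed the role with rises of 1.74-fold and 1.49-fold (adjusted p = 0.00293 and 0.0027).

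At the fork, 3 of 4 genes rose: *Lig1*, the ligase that seals Okazaki fragments, 1.71-fold (adjusted p = 0.00442), *Fen1*, the flap endonuclease, 1.44-fold (adjusted p = 0.0132), and *Pold1*, the catalytic subunit of polymerase delta, 1.38-fold (adjusted p = 0.0219). *Rfc4* differed by 0.34 ± 0.13 (SE, adjusted p = 0.0951). *Pcna* was not tested in F1, since none of the 8 arrays detected it, with values of 6.11, 5.75, 6.46 and 5.79 in TgUmodwt and 5.98, 6.48, 6.16 and 6.43 in TgUmodC147W. Of the nucleotide genes, 3 of 4 rose. *Tk1* was at 8.61, 9.02, 8.35 and 8.13 in the controls and 9.14, 9.73, 9.05 and 9.78 in the mutants. The ranges were separate by a narrow margin, and it rose 1.86-fold (SE 0.22, adjusted p = 0.019), but at 0.0575 the call was lost without mutant replicate 2. The ribonucleotide reductase subunits *Rrm2* and *Rrm1* rose 1.75-fold and 1.36-fold (adjusted p = 0.00299 and 0.0142). *Tyms*, thymidylate synthase, differed by 0.09 ± 0.12 (SE, adjusted p = 0.676). *Mcm3*, by the probe that the non-normalized table names so, was at 6.73, 6.62, 6.52 and 6.26 in TgUmodwt F1 and at 7.55, 7.68, 7.45 and 7.55 in TgUmodC147W F1, a difference of 1.03 ± 0.11 (SE, adjusted p = 0.00039) when probes were named by that table alone. The probe that the other table names *Mcm3* was at 6.09, 6.52, 6.07 and 5.73 against 7.42, 7.42, 7.14 and 7.10, so by either naming the mutants lay above the controls. *Rfc3*, of the clamp loader, differed by 0.43 ± 0.11 (SE, adjusted p = 0.0288).

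*E2f1*, the transcription factor of S phase entry, followed the licensing genes. It was at 7.80, 8.04, 7.89 and 7.55 in TgUmodwt F1 and 9.10, 9.41, 8.74 and 9.04 in TgUmodC147W F1. The lowest mutant lay above the highest control, and *E2f1* rose 2.38-fold (SE 0.15, adjusted p = 0.000624, and 0.00157 without mutant replicate 2). *Cdk2* and *Cdk4*, kinases of the G1 to S transition, rose 1.29-fold and 1.27-fold (adjusted p = 0.0306 and 0.0441), which became 0.0845 and 0.113 without that array. The D cyclins did not pass the test: *Ccnd1* was at 13.98, 14.12, 14.12 and 13.95 in the controls and 14.27, 14.18, 13.95 and 14.37 in the mutants, overlapping (0.15 ± 0.11, adjusted p = 0.377), and *Ccnd2* differed by 0.04 ± 0.11 (SE, adjusted p = 0.865).

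Of the mitosis genes, with the proliferation marker *Top2a* beside them, *Prc1* was at 9.57, 9.83, 9.51 and 9.64 in TgUmodwt F1 and 10.50, 10.60, 9.88 and 10.91 in TgUmodC147W F1. Mutant replicate 3 lay only just above the controls, and *Prc1* rose 1.78-fold (SE 0.19, adjusted p = 0.0134, and 0.041 without mutant replicate 2). *Aurkb*, the kinase of the chromosomal passenger complex, was at 6.29, 6.95, 6.40 and 6.42, detected on 1 control array, and at 7.19, 7.75, 6.89 and 7.70. Mutant replicate 3 lay below the highest control, and *Aurkb* rose 1.82-fold (SE 0.21, adjusted p = 0.0176). *Top2a* was at 7.54, 7.95, 7.08 and 7.49 in the controls and 8.28, 8.54, 7.92 and 8.60 in the mutants, again overlapping through mutant replicate 3, and rose 1.77-fold (SE 0.19, adjusted p = 0.0171, and 0.0524 without mutant replicate 2). *Kif23*, *Nusap1*, which binds spindle microtubules, *Bub1b* and *Foxm1*, the factor that switches on mitosis genes, rose 1.45-fold, 1.72-fold, 1.75-fold and 1.38-fold. The dimmer pair of *Kif23* probes differed by 0.14 and -0.03, neither past the test. *Cdk1* was at 8.20, 8.53, 7.59 and 7.78 in the controls and 8.52, 8.56, 8.26 and 8.74 in the mutants. The controls spread widely and overlapped the mutants, and the difference of 0.50 ± 0.19 (SE, adjusted p = 0.107) was not past the test. *Kif11*, the kinesin that keeps spindle poles apart, was detected on none of the controls and on 2 mutant arrays, so no difference is given (adjusted p = 0.378). The other 7 members that missed the test differed by 0.40 (*Aurka*) to 0.64 (*Birc5*, survivin).

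TgUmodC147W F1 replicate 3 had the lowest value of its group for all 15 mitosis members and for 12 of 17 replication members, and without it 11 of 15 mitosis members rose. Without TgUmodwt F1 replicate 1, 3 of 15 rose.

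**Figure D3:**
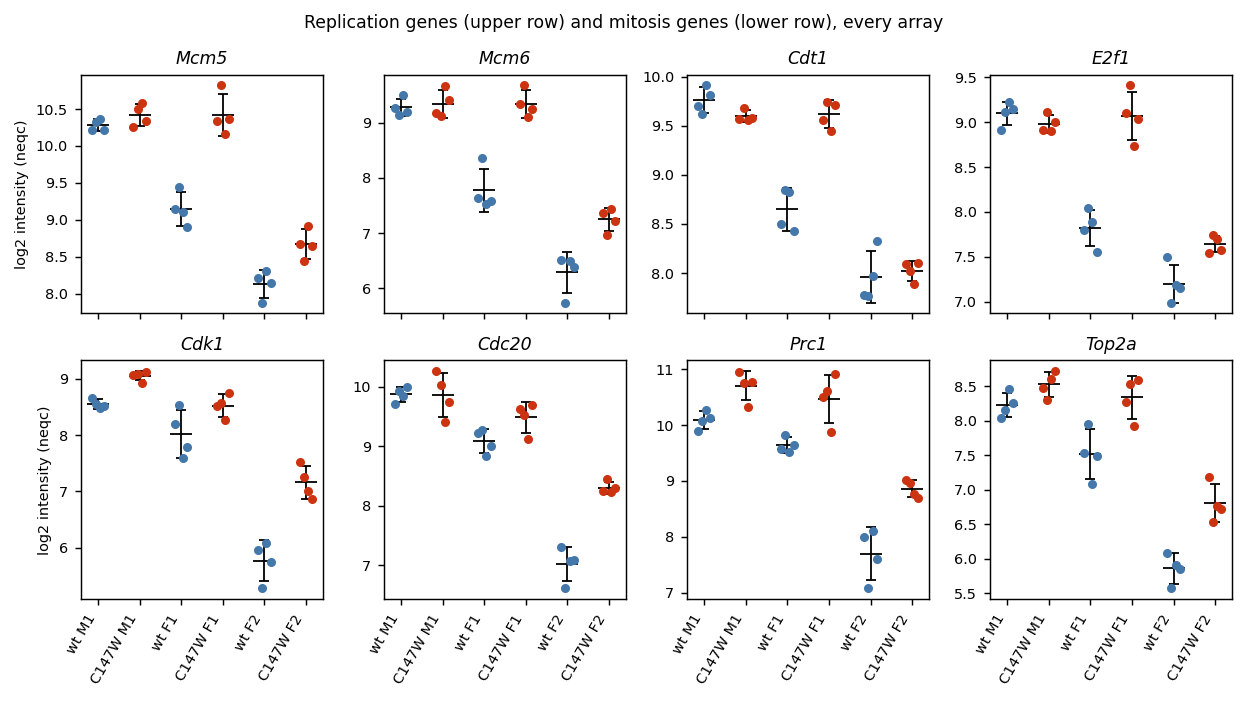
Log2 intensity of 4 genes of S phase entry (*Mcm5*, *Mcm6*, *Cdt1* and *E2f1*, upper row) and of the mitosis genes *Cdk1*, *Cdc20* and *Prc1* with the proliferation marker *Top2a* (lower row), 1 point per array, 4 arrays per group, blue for TgUmodwt and red for TgUmodC147W, with bars for the mean and SD. In the upper row the TgUmodC147W F1 points sit at the height of both M1 groups and above the TgUmodwt F1 points. In the lower row the F2 points of the genotypes do not overlap, and the TgUmodwt F2 points of *Cdk1* and *Top2a* were below detection.

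In females of 2 months, 15 of 34 members rose in TgUmodC147W and 0 fell, where 5.42% of the 9848 genes tested rose and 3.05% fell. At an unadjusted p below 0.05, limma had 19 higher and 0 lower. The median difference was 0.34 over members and -0.01 over all genes, with 4728 of 9848 genes higher in the mutants. Mutant arrays all lay above the controls for 14 of 34 members and 8.52% of genes. On the mitosis side 10 of 13 rose, with a median of 0.73, or 0.58 with the 5 members below detection in the controls at their bounds. Those 5 (*Cdk1*, *Kif22*, *Nusap1*, *Aurka* and *Bub1b*) were tested only because mutant arrays detected them. Of the 8 mitosis members detected in both genotypes, 5 rose (median 0.67), and of all 28 such members 9 rose, where 4.72% of the 9352 genes detected in both rose. On the replication side all 15 members tested were detected in both, 3 rose, 14 were higher and the median was 0.19.

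*Cdk1* was at 5.97, 5.28, 6.09 and 5.74 in TgUmodwt F2, detected on none of 4 arrays, and at 7.53, 7.25, 7.01 and 6.87 in TgUmodC147W F2, detected on all 4. It was at least 1.49-fold higher (means 7.16 and 5.77, adjusted p = 0.00146). *Cdc20*, the activator of the anaphase-promoting complex, was at 7.31, 6.61, 7.07 and 7.08 in the controls and 8.24, 8.45, 8.23 and 8.29 in the mutants. The mutants lay close together above all controls, and *Cdc20* rose 2.44-fold (SE 0.14, adjusted p = 0.000298). Of its 4 probes, 1 differed by 0.16. *Plk1*, the polo kinase, was at 6.40, 5.98, 6.83 and 6.94, detected on 2 control arrays, and at 7.08, 7.48, 7.21 and 7.21, a rise of 1.63-fold between separate ranges (SE 0.19, adjusted p = 0.0461). *Aurka*, the kinase of spindle poles, passed the test (adjusted p = 0.0409), but its probe was detected on none of the controls and on 1 mutant array, so no fold is given.

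At the kinetochore, *Cenpa* rose 1.54-fold (SE 0.10, adjusted p = 0.00364), with controls at 8.64 to 8.99 and mutants at 9.39 to 9.55. *Birc5*, a partner of Aurkb, was at 6.63, 6.28, 6.44 and 6.67 in the controls, detected on 2, and at 7.39, 7.32, 7.22 and 7.00 in the mutants. All mutants were higher, and *Birc5* rose 1.66-fold (SE 0.12, adjusted p = 0.00434). *Bub1b*, at 5.72, 5.21, 5.71 and 5.41 in the controls and 6.31, 6.62, 6.26 and 6.26 in the mutants, passed the test (adjusted p = 0.00396) with 1 detected array in all, so it has no fold. *Mad2l1*, its partner in the checkpoint, differed by 0.50 ± 0.15 (SE, adjusted p = 0.0662).

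Among the spindle genes, *Kif22*, a kinesin of chromosome arms, was at 5.88, 5.60, 6.07 and 5.91 in TgUmodwt F2 and 7.11, 6.86, 6.94 and 7.04 in TgUmodC147W F2. Detection went from 0 to 4 arrays, with a rise of at least 1.32-fold (means 6.99 and 5.87, adjusted p = 0.000203). *Prc1* was at 8.00, 7.08, 8.11 and 7.60 in the controls and 9.01, 8.97, 8.76 and 8.70 in the mutants, detected throughout and without overlap, and rose 2.24-fold (SE 0.20, adjusted p = 0.00555). *Nusap1* was at 6.46, 6.05, 6.61 and 6.34, with no control detected, and at 7.32, 7.68, 6.91 and 6.80, at least 1.5-fold higher (means 7.18 and 6.36, adjusted p = 0.0248). The proliferation marker *Top2a* showed the same shift from 0 to 4 detected arrays, at 6.09, 5.57, 5.91 and 5.85 in the controls and 7.19, 6.54, 6.77 and 6.72 in the mutants, and was at least 1.16-fold higher (means 6.81 and 5.86, adjusted p = 0.00391). *Kif23* differed by 0.27 ± 0.09 (SE, adjusted p = 0.114).

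On the replication side, *Mcm6* was at 6.52, 5.74, 6.49 and 6.39 in the controls, detected on 1, and at 7.36, 6.96, 7.44 and 7.22 in the mutants. The ranges were separate, and *Mcm6* rose 1.94-fold (SE 0.17, adjusted p = 0.00758). *Mcm5* was at 8.21, 7.88, 8.31 and 8.14 in the controls and 8.67, 8.44, 8.92 and 8.65 in the mutants, likewise separate, and rose 1.45-fold (SE 0.12, adjusted p = 0.0247). *Gins2* was at 6.41, 6.87, 6.49 and 6.07 against 7.37, 6.86, 7.39 and 7.09, overlapping by 1 array of each group, and rose 1.64-fold (SE 0.17, adjusted p = 0.028). A dimmer *Gins2* probe differed by 0.19, short of the threshold. *E2f1* was at 7.50, 6.99, 7.18 and 7.15 in the controls and 7.54, 7.74, 7.70 and 7.58 in the mutants, a rise of 1.35-fold (SE 0.11, adjusted p = 0.0417). *Cdt1*, 0.06 ± 0.13 (SE, adjusted p = 0.839), *Tk1*, 0.03 ± 0.16 (SE, adjusted p = 0.937), and *Fen1*, 0.03 ± 0.09 (SE, adjusted p = 0.898), differed by less than their errors. *Cdc6* and *Pcna* were detected on no F2 array, with *Pcna* at 5.53 to 5.88 in TgUmodwt and 5.30 to 6.06 in TgUmodC147W. *Ccnd1* was at 13.52, 13.47, 13.70 and 14.17 in the controls and 13.70, 13.69, 13.82 and 13.83 in the mutants, with TgUmodwt replicate 4 above all mutants (0.05 ± 0.14, adjusted p = 0.896). *Rfc3*, from the table that names it, differed by 0.37 ± 0.11 (SE, adjusted p = 0.075).

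The number of members that rose was 9 to 14 when any single array was left out, lowest without TgUmodC147W F2 replicate 1, when *Aurka*, *E2f1*, *Gins2*, *Mcm5*, *Nusap1* and *Plk1* missed the threshold. The mitosis count then ranged from 7 to 10 and the replication count from 1 to 3. The count of 1 came without TgUmodwt replicate 4 and without TgUmodC147W replicate 1, 3 or 4, and in those fits *Gins2* and *Mcm5* were lost.

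Between 1 and 2 months, members fell in both genotypes. In TgUmodwt females 23 of 35 fell and 0 rose from F1 to F2, where 1.84% of 9750 genes fell and 1.62% rose, and at an unadjusted p below 0.05 limma had 30 lower and 0 higher. In TgUmodC147W females 35 of 37 fell and 0 rose, where 6.93% of 10007 genes fell and 6.18% rose, with 36 lower and 0 higher unadjusted. The median change was -0.69 in the controls and -1.11 in the mutants, against -0.00 and -0.02 over all genes. In TgUmodwt, all F2 arrays lay below all F1 arrays for 26 of 35 members and 5.62% of genes. These comparisons use the same arrays as those between genotypes. Of members detected at both ages, 16 of 28 fell in TgUmodwt and 32 of 34 in TgUmodC147W, where 1.46% and 6.25% of such genes did. Without TgUmodC147W F1 replicate 2, 31 of 37 fell in the mutants, the calls of *Ccnd1*, *Kif11*, *Pold1* and *Rfc4* being lost.

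In TgUmodwt 13 of 14 mitosis genes fell, with a median of -1.33 (-1.05 with 6 members at their bounds), and 7 of 15 replication genes, with a median of -0.49. Of the 8 mitosis genes detected at both ages, 7 fell (median -1.24), where 1.46% of 9342 such genes did. *Cdk1* went from 7.59 to 8.53 in F1 to 5.28 to 6.09 in F2, where no array detected it, and was at least 2.7-fold lower (adjusted p = 0.00049). *Cdc20* was at 9.22, 9.28, 8.84 and 9.01 in F1, far above its F2 values, and fell 4.2-fold (SE 0.15, adjusted p = 0.000189). *Prc1* fell 3.84-fold (SE 0.19, adjusted p = 0.000586), and *Birc5*, at 8.30, 8.58, 8.14 and 8.04 in F1, 3.39-fold (SE 0.13, adjusted p = 0.000189). *Plk1*, at 7.90, 7.99, 7.70 and 7.70 in F1, fell 2.44-fold (SE 0.19, adjusted p = 0.00421). Detection was lost in F2 for *Nusap1* (at least 2.23-fold lower, from 7.56, 8.11, 7.57 and 7.74 in F1), *Kif22* (at least 1.92-fold, from 7.64, 7.83, 7.06 and 7.60), *Top2a* (at least 1.9-fold) and *Aurka* (at least 1.34-fold, from 7.06, 7.34, 6.95 and 6.71 to 5.79, 5.35, 5.58 and 5.84), with adjusted p from 0.000631 to 0.000763.

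Of the replication genes, *Mcm6* fell 2.81-fold in TgUmodwt (SE 0.21, adjusted p = 0.00371), and *Mcm5* 2.02-fold (SE 0.13, adjusted p = 0.00205). *Cdt1*, *Mcm2*, *Mcm7*, *Gins2* and *Tk1* also fell, by 1.36-fold to 1.82-fold. The 8 others, *Mcm4* among them (-0.21 ± 0.12, adjusted p = 0.405), were lower without passing the test. *Mcm3*, from the table that names it, changed by -0.95 ± 0.14 (SE, adjusted p = 0.00451). The replication count was 2 without TgUmodwt F1 replicate 2 or 3 or F2 replicate 3, 3 without F2 replicate 2 or 4, and 4 without F1 replicate 1, and *Mcm5* and *Mcm6* kept their calls in each of these fits. The mitosis count stayed at 12 or 13. Same-numbered TgUmodwt F1 and F2 arrays deviated together (correlations of 0.119 to 0.356), and with the replicate number as a block 25 members fell, the call of *Tk1* being lost and those of *Lig1*, *Rrm1* and *Rrm2* gained. *Ccnd1* changed by -0.33 ± 0.14 (SE, adjusted p = 0.28).

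In TgUmodC147W all 16 replication genes and all 15 mitosis genes tested fell, with medians of -1.11 and -1.16 (-1.04 and -1.11 with 1 and 2 members at their bounds), and without F1 replicate 2 these were 14 of 16 and 14 of 15. *Mcm6* fell 4.28-fold (SE 0.14, adjusted p = 1.80e-05), *Mcm5* 3.37-fold (SE 0.15, adjusted p = 6.80e-05) and *Cdt1*, from 9.45 to 9.74 to 8.09, 8.02, 7.89 and 8.10, 3.02-fold (SE 0.10, adjusted p = 8.09e-06). *Tk1* reached 8.01, 7.35, 7.75 and 7.83 in F2 and fell 3.23-fold (SE 0.19, adjusted p = 0.000401), and *E2f1* fell 2.7-fold (SE 0.13, adjusted p = 0.000112). Each of the 5 was lower on every F2 array than on any F1 array, as were 33 of 37 members and 11.7% of all 10007 genes. Of the mitosis genes, *Birc5* fell 3.18-fold from 8.88, 9.09, 8.28 and 9.35 in F1 (SE 0.20, adjusted p = 0.000494), *Prc1* 3.06-fold and *Cdk1* 2.56-fold. The proliferation marker *Top2a* fell 2.89-fold. *Aurkb*, detected on no F2 array, was at least 1.82-fold lower, at 6.25, 6.06, 5.97 and 5.73 (adjusted p = 0.00128). *Ccnd1* fell 1.35-fold (adjusted p = 0.0229), a call lost without TgUmodC147W F1 replicate 1 or 2 or F2 replicate 1, whereas *Ccnd2* (0.02 ± 0.12, adjusted p = 0.95) and *Cdk4* (-0.32 ± 0.11, adjusted p = 0.0821) missed the threshold.

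**Figure D4:**
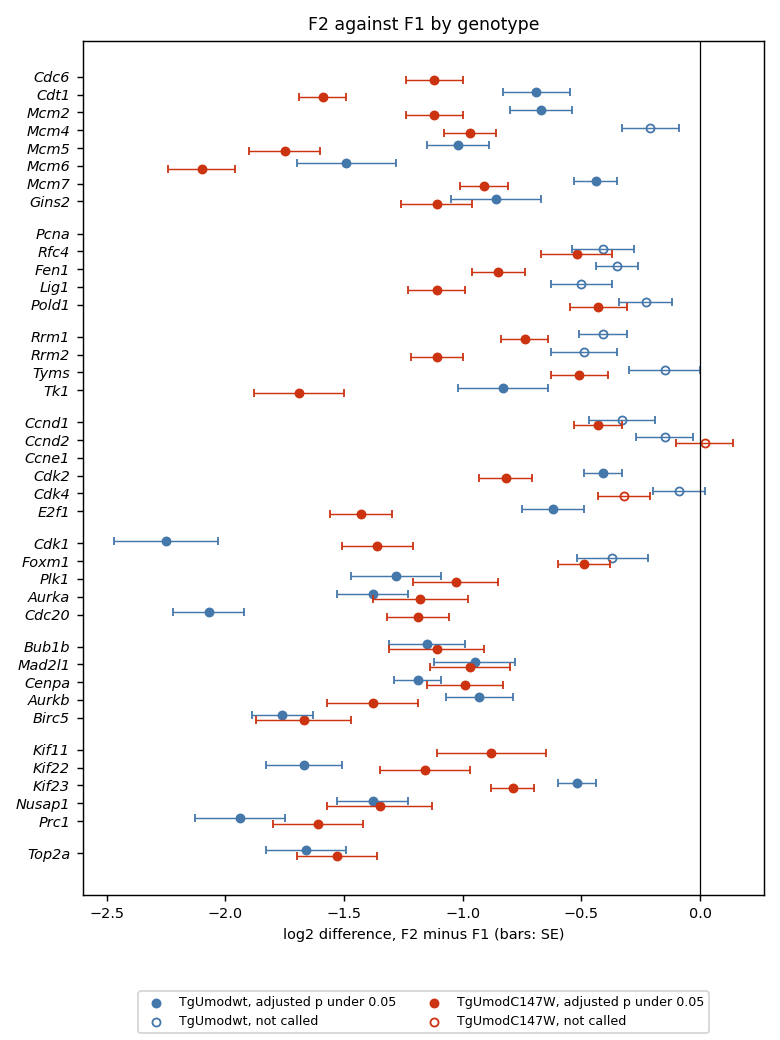
Difference F2 minus F1 in log2 intensity for each tested member, ordered by role, blue for TgUmodwt and red for TgUmodC147W, with bars for the SE and filled points where limma's adjusted p was below 0.05, 4 arrays per group. The red points lie further left for the licensing genes (-1.59 against -0.69 for *Cdt1*), and the blue one for *Cdc20* (-2.07 against -1.19 for *Cdc20*).

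Whether the genotypes changed differently with age was tested over the 16 female arrays. Of 37 members, 4 fell more in TgUmodC147W and 1 fell less, against 0.493% and 0.808% of 10143 genes. The 4 were *Cdt1* (-0.90 ± 0.18, adjusted p = 0.0235), *E2f1* (-0.82 ± 0.19, adjusted p = 0.0484), *Cdc6* (-0.78 ± 0.15, adjusted p = 0.0187, below detection in 3 of the 4 groups) and *Mcm4* (-0.76 ± 0.16, adjusted p = 0.0276). The opposite case was *Cdc20* (0.88 ± 0.21, adjusted p = 0.0486), which fell less in the mutants. Same-numbered TgUmodwt F1 and F2 arrays deviated together, though the sample titles state no pairing. With the number as a block *Cdc20* and *E2f1* missed the threshold (adjusted p = 0.0559 and 0.063), while *Cdt1*, *Mcm4* and *Cdc6* passed (0.0384, 0.039 and 0.0232). The call of *Cdc20* was also lost with the spline values, no background correction, median scaling, an offset of 50, no detection filter or the mean of probes. Without a detection filter the calls of *Cdt1*, *E2f1* and *Mcm4* were lost as well, and with median scaling that of *E2f1*. The call of *Cdc6* was lost with detection required on 8 of the 16 arrays, and its change in the controls was never above background. Over all 10143 genes the term was above 0 for 4779 (median -0.02). It was below 0 for all 16 replication members (median -0.55, with 12 lower at an unadjusted p below 0.05). Of 15 mitosis members, 7 of them below detection in TgUmodwt F2, 10 were above 0 (median 0.09). Of the 8 detected in all 4 groups, 5 were above 0 (median 0.15). *Cdk1*, one of the 7, had a term of 0.90 ± 0.29 (SE, adjusted p = 0.159), and *Mcm5* and *Mcm6* of -0.73 ± 0.21 (SE, adjusted p = 0.103) and -0.61 ± 0.28 (SE, adjusted p = 0.371). The other calls also depended on single arrays. Without TgUmodC147W F1 replicate 2 *Cdc6* alone passed (adjusted p = 0.0377, against 0.0502 for *Cdt1*, 0.0537 for *Mcm4*, 0.0943 for *E2f1* and 0.0884 for *Cdc20*). *Cdc6* was also the only call without TgUmodwt F1 replicate 1 or 4 or TgUmodwt F2 replicate 3, and without TgUmodC147W F2 replicate 3 or 4 *Cdc6* and *Cdt1* were.

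The males served as a further reference for the females of 1 month, in comparisons chosen after the values had been seen and sharing arrays with those above. In TgUmodwt, 31 of 37 members fell and 0 rose from M1 to F1, where 11.6% of 9698 genes fell and 15.2% rose, with 32 lower and 2 higher at an unadjusted p below 0.05. The median was -0.67, against 0.04 over all genes, and 15 of 16 replication genes (median -0.76) and 14 of 15 mitosis genes (median -0.65) fell. With 1 member on each side at its bound these medians were -0.72 and -0.60. All TgUmodwt F1 arrays lay below all TgUmodwt M1 arrays for 30 of 37 members and 13.4% of genes. Of 35 members detected in both of these groups 29 fell, against 11.4% of 9160 such genes. In TgUmodC147W, 0 of 39 fell and 0 rose by limma, where 0.0394% and 0.00985% of 10152 genes did (4 and 1 genes), with 3 lower and 2 higher unadjusted. The replication median was 0.02 and the mitosis median -0.24. Without F1 replicate 2 the counts were again 0 and 0, with medians of -0.03 and -0.30. Sex and any processing that differed between M1 and F1 arrays cannot be told apart.

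For *Mcm6*, *E2f1* and *Cdt1*, shown for their large differences, the TgUmodwt F1 arrays lay below the other 3 groups of 1 month. *Mcm6* was at 9.27, 9.15, 9.50 and 9.20 in TgUmodwt M1 and at 9.17, 9.12, 9.66 and 9.41 in TgUmodC147W M1, and the TgUmodC147W F1 values printed above overlapped both, while all TgUmodwt F1 arrays lay lower (2.83-fold below M1; SE 0.17, adjusted p = 0.000137). *Tk1* fell 2.66-fold (SE 0.16, adjusted p = 0.000127) in TgUmodwt. *E2f1* was at 8.91, 9.11, 9.22 and 9.15 in TgUmodwt M1 and 8.91, 9.11, 8.90 and 9.00 in TgUmodC147W M1, and its TgUmodwt F1 arrays were 2.43-fold lower than M1 (SE 0.11, adjusted p = 2.09e-05). *Cdt1* was at 9.70, 9.62, 9.91 and 9.81 in the control and 9.57, 9.68, 9.56 and 9.58 in the mutant males, and fell 2.15-fold in TgUmodwt (SE 0.11, adjusted p = 6.45e-05). *Cdk1* differed by -0.52 ± 0.17 in TgUmodwt (adjusted p = 0.0461, a call lost in 7 of 8 fits that left out an array) and by -0.53 ± 0.11 in TgUmodC147W (adjusted p = 0.204), so there both genotypes had the lower values in F1. In TgUmodC147W, 14 of 15 mitosis members were lower in F1 than in M1, none past the test, where 5205 of 10152 genes were higher in F1.

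The test of genotype by sex at 1 month had 17 of 39 members with a larger genotype difference in females and 1 with a smaller, against 3.74% and 3.94% of 10272 genes. On the replication side these were 15 of 17 (median 0.79), and on the mitosis side 1 of 15, *Foxm1* (median 0.40). Of 35 members detected in every group of 1 month, 16 had the larger difference and 1 the smaller, against 3.51% and 3.59% of 9078 such genes. The largest terms were those of *Mcm6* (1.50 ± 0.25, adjusted p = 0.0012), *E2f1* (1.37 ± 0.18, adjusted p = 0.000162) and *Tk1* (1.23 ± 0.25, adjusted p = 0.0066). *Ccnd2* was the member with the smaller difference (-0.57 ± 0.15, adjusted p = 0.0248). Without TgUmodC147W F1 replicate 2, 13 members had the larger and 1 the smaller difference, 12 of 17 and 0 of 15 on the 2 sides, and *Mcm6*, *E2f1*, *Cdt1* and *Mcm5* had adjusted p of 0.00279, 0.000214, 0.000502 and 0.00137. *Mcm3*, from the table that names it, had a term of 1.05 ± 0.19 (SE, adjusted p = 0.00313).

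Other genes of the same pathways, from lists drawn up beside the members, were tested in the same fits, and their differences are given with the SE. The shares of all genes that rose and fell, to set beside the counts, were 21.9% and 15.4% in M1, 10.4% and 7.6% in F1, and 5.42% and 3.05% in F2, and 1.84% and 6.93% fell with age in TgUmodwt and TgUmodC147W. Counts and shares include genes detected in only 1 of the groups compared. For these lists, genes detected in every group were not counted apart. Of 50 further replication genes, 15 of 38 tested rose in F1, led by *Uhrf1*, which maintains DNA methylation at the fork (1.53 ± 0.16, adjusted p = 0.000303), *Cdc7*, the kinase that fires origins (1.46 ± 0.18, adjusted p = 0.000708), *Pole*, the leading strand polymerase (adjusted p = 0.00257), and *Cdc45*, of the active helicase (adjusted p = 0.00216), the last 2 detected on mutant arrays only. In M1, 1 of 38 rose (*Cdc7*, 0.74 ± 0.09, adjusted p = 0.000164) and 4 fell, among them *Mcm10* (-1.24 ± 0.10, adjusted p = 9.13e-06), which helps to activate the helicase, and in F2, 3 of 35 rose, again *Uhrf1* (1.07 ± 0.14, adjusted p = 0.0011) and *Cdc7* (adjusted p = 0.023, detected in the mutants only), with *Dbf4*, the activator of Cdc7 (0.48 ± 0.11, adjusted p = 0.0228). With age 5 of 36 fell in TgUmodwt and 17 of 37 in TgUmodC147W, and the term of genotype by age of *Mcm10* (-0.82 ± 0.17, adjusted p = 0.0242) passed the test, as did those of *Cdc45* and *Pole* (adjusted p = 0.0157 and 0.0438), detected in TgUmodC147W F1 alone.

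Of 55 further mitosis genes, 6 of 33 rose and 2 fell in M1, 11 of 30 rose in F1, and 7 of 18 rose and 1 fell in F2. Neither M1 share exceeded that of all genes. *Anln*, anillin of the cleavage furrow, rose in each (0.49 ± 0.13, adjusted p = 0.0153 in M1, 1.01 ± 0.23, adjusted p = 0.0142 in F1, and adjusted p = 0.000298 in F2, where no control array detected it), and *Pbk*, a mitotic kinase, in F1 (0.88 ± 0.21, adjusted p = 0.0174) and F2 (1.16 ± 0.27, adjusted p = 0.0273). In M1 *Kif20b*, a kinesin of cytokinesis, fell (-2.09 ± 0.19, adjusted p = 1.59e-05). With age 13 of 24 fell in TgUmodwt and 19 of 30 in TgUmodC147W. Of the 8 inhibitors of cyclin-dependent kinases, *Cdkn2b* rose in M1 (1.32 ± 0.13, adjusted p = 2.63e-05), F1 (0.93 ± 0.12, adjusted p = 0.000816) and F2 (0.49 ± 0.10, adjusted p = 0.017), and *Cdkn1a*, p21 of the p53 response, in M1 (1.19 ± 0.19, adjusted p = 0.000628). In all, 3 of 8 rose and 1 fell in M1, 1 of 7 rose in F1 and 2 of 7 in F2, the other being *Cdkn3* (1.43 ± 0.21, adjusted p = 0.00281), a phosphatase named among the inhibitors that itself fell with age in TgUmodwt (-2.06 ± 0.26, adjusted p = 0.00205). *Cdkn1a* was higher in TgUmodwt F1 than M1 (1.28 ± 0.15, adjusted p = 0.000208). Of 21 retinoblastoma, E2F and other G1 genes, 1 of 13 rose and 1 fell in M1, and 1 of 13 rose in F1 (*Tfdp1*, the partner of E2F, 0.36 ± 0.09, adjusted p = 0.0232) and in F2 (*Mybl2*, adjusted p = 0.0489, detected on 2 mutant arrays and no control).

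Markers of other cell types moved with genotype. Of macrophage markers, 10 of 13 rose in M1, 10 of 13 in F1 and 11 of 12 in F2, and their summed level went from 11.48 to 11.99 on TgUmodwt arrays of all groups to 12.26 to 12.94 in TgUmodC147W M1, 12.57 to 13.49 in F1 and 13.15 to 13.31 in F2. *Cd68* was not named, and *Itgam* and *Fcgr1* were not detected. Fibroblast and myofibroblast markers rose in 9 of 9, 6 of 9 and 7 of 8 cases, with summed levels of 13.42 to 13.98 in TgUmodwt and 14.06 to 14.94 in TgUmodC147W arrays, and *Postn* was not detected. Tubular injury markers rose in 6 of 6, 6 of 7 and 6 of 6 cases, from 9.91 to 10.48 in TgUmodwt to 11.03 to 12.65 in TgUmodC147W. Endothelial markers rose in 6 of 7 cases in M1, 0 of 7 in F1 and 1 of 7 in F2. Their summed level in M1 was 13.59 to 13.77 in TgUmodwt and 14.07 to 14.14 in TgUmodC147W. Among red cell precursor markers 6 of 7 fell in F2, from 17.46 to 17.62 in TgUmodwt to 16.01 to 17.02 in TgUmodC147W. In M1 2 of 7 rose and 1 fell, and in F1 0 rose and 1 fell. Of 10 proximal tubule markers 1 fell in M1, 2 in F1 and 1 in F2, and 0 rose. Their sums in M1 were 18.04 to 18.11 in TgUmodwt and 17.96 to 17.97 in TgUmodC147W, and those of F1 and F2 overlapped between the genotypes. Thick ascending limb markers rose in 6 of 7 cases in M1, 2 of 7 in F1 and 2 of 7 in F2, with summed levels of 16.49 to 16.89 in TgUmodwt and 16.81 to 16.98 in TgUmodC147W. Lymphocyte and neutrophil markers were mostly below detection (3 of 12 T cell, 1 of 7 B cell and 2 of 8 neutrophil markers detected), but *Thy1*, on the T cell list and also made by fibroblasts and neurons, rose by 1.15 ± 0.24, adjusted p = 0.00369 in M1, 1.61 ± 0.24, adjusted p = 0.00164 in F1 and 0.89 ± 0.12, adjusted p = 0.00178 in F2, while *Cd3d*, *Cd3e* and *Cd4* were not detected. Of the T cell markers tested, 1 of 2 rose and 1 fell in M1, 1 of 2 rose in F1 and 1 of 3 in F2. The summed level of the 3 detected was 13.58 to 13.71 in TgUmodwt M1 and 13.11 to 13.50 in TgUmodC147W M1. Of the nephron progenitor markers *Six2*, *Cited1*, *Eya1* and *Gdnf* were not detected. *Meox1* rose in M1 (0.35 ± 0.13, adjusted p = 0.0475) and F2 (0.46 ± 0.08, adjusted p = 0.00719), and *Uncx* in M1 (adjusted p = 0.0189, detected on 2 mutant arrays and no control).

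Markers also changed with age, between the groups in which the members fell. In TgUmodwt, 2 of 8 fibroblast markers fell (*Col1a1*, -1.54 ± 0.16, adjusted p = 0.000624, and *Col3a1*, adjusted p = 0.00874, detected on no F2 array), and their summed level was 13.84 to 13.98 in F1 and 13.42 to 13.72 in F2, without overlap. The endothelial *Cdh5* (-0.37 ± 0.09, adjusted p = 0.049) and *Meox1* (-0.55 ± 0.12, adjusted p = 0.0326) fell too, and the macrophage sums were 11.65 to 11.94 in F1 and 11.70 to 11.99 in F2. In TgUmodC147W, 4 of 9 fibroblast markers fell, with sums of 14.47 to 14.94 in F1 and 14.06 to 14.27 in F2, as did 5 of 7 red cell precursor markers, with sums of 17.26 to 17.62 and 16.01 to 17.02. Of its macrophage markers 3 of 13 rose and 1 fell. The part of these markers in the results was not tested.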

How the data were processed

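RNA from 24 whole kidneys, 4 per group, was profiled on the MouseWG-6 v2.0 BeadChip of Illumina. The authors exported unnormalised probe intensities from GenomeStudio, and this deposited intensity table gives a detection p-value for each probe and array. A second deposited table holds intensities after the authors' cubic spline normalization, and served as an alternative. It carried another probe ID for 13666 of 45281 probes (30.2%), matched by value, so genes were named only where both tables gave the same name (34043 probes, 18762 genes). Of all 45281 probes 18 had several symbols and 10378 had none.

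Intensities were background corrected, quantile normalized and log2 transformed with an offset of 16 (neqc, limma 3.58.1, statmod 1.5.0, R 4.3.3). Probes with a detection p-value below 0.01 on at least 1 array of a comparison were kept, and the brightest probe stood for its gene. Groups were compared by limma with empirical Bayes moderation and a threshold of 0.05 on the adjusted p. Benjamini-Hochberg adjustment ran over all probes kept (19026 in M1, 18523 in F1 and 18302 in F2), before the brightest probe was taken for each gene. Counts at an unadjusted p were made for members only, so no share of all genes stands beside them. Comparisons of 2 groups used their 8 arrays, and interactions 16. The procedure was tested on simulated data. Tables were joined with Python 3.11.15, pandas 2.3.3 and numpy 2.4.6. The labels call the arrays biological replicates. The members and the other gene lists were chosen with earlier results of these data known. Named in full in each comparison were up to 10 members past the test with the largest differences, together with *Mki67*, *Top2a*, *Pcna*, *Mcm5*, *Ccnd1* and *Cdk1*, and up to 4 genes past the test per other list. Alternatives were the spline values, no background correction, median scaling, an offset of 50, no detection filter, the mean of a gene's probes, naming by 1 table, 1 fit over all 24 arrays, a replicate block and leaving out each array, with counts over members detected in every group compared added after seeing the data. Same-numbered arrays deviated together in TgUmodwt F1 and F2 (correlations of 0.119 to 0.356, all above 0.1), so that comparison is also given blocked. In the other comparisons at least 1 pair was at or below 0.1. RefSeq promoter windows (GRCm38.p6) were searched on both strands.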

Additional observations from a re-analysis of the deposited data

Results flagged for a closer look

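A single array stood apart within its group of 4 for 14 of 234 sets of gene and group (5.98%). In each, the gap of the highest or lowest array to its neighbour took most of the range of the group (Dixon's criterion), which chance gives in about 1 in 20 groups. On the replication side these were *Cdt1* at 9.68 in TgUmodC147W M1 replicate 2, *Mcm4* at 10.80 in TgUmodwt M1 replicate 1, and *Mcm6* at 8.37 in TgUmodwt F1 replicate 2 and at 5.74 in TgUmodwt F2 replicate 2. *Lig1* was at 8.54 in TgUmodC147W M1 replicate 4 and at 7.04 in TgUmodwt F2 replicate 2, and *Pold1* at 8.49 in TgUmodC147W F1 replicate 3. Among G1 and S genes, *Ccnd2* was at 8.76 in TgUmodwt F1 replicate 4 and at 9.11 in TgUmodC147W F2 replicate 4. *Ccne1*, below detection there, was at 5.57 in TgUmodC147W F1 replicate 3 and at 6.02 in TgUmodC147W F2 replicate 4, and *Cdk4* was at 10.69 in TgUmodC147W F1 replicate 1. Of the mitosis genes, *Bub1b* was at 7.40 in TgUmodC147W M1 replicate 3 and at 6.62 in TgUmodC147W F2 replicate 2.

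The change with age differed between the genotypes by limma's test of the interaction for *Cdc20* (0.88), *Cdc6* (-0.78), *Cdt1* (-0.90), *E2f1* (-0.82) and *Mcm4* (-0.76), on the log2 scale, TgUmodC147W minus TgUmodwt. Without TgUmodC147W F1 replicate 2 the call of *Cdc6* held and the other 4 did not, but *Cdc6* was below detection in 3 of the 4 groups. With the replicate number as a block *Cdc20* and *E2f1* missed the threshold (adjusted p = 0.0559 and 0.063).

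The genotype difference at 1 month differed between females and males for 18 members, given as the difference in F1 minus that in M1. *Cdc6* was below detection on all TgUmodwt F1 arrays, so its term of 1.10 rests on a level not above background. The other licensing genes had terms of 1.13 (*Cdt1*), 0.67 (*Mcm2*), 1.07 (*Mcm4*), 1.13 (*Mcm5*), 1.50 (*Mcm6*), 0.64 (*Mcm7*) and 1.18 (*Gins2*). Fork genes had 0.48 (*Fen1*), 0.79 (*Lig1*), 0.71 (*Pold1*) and 0.82 (*Rfc4*), and nucleotide genes 0.49 (*Rrm1*), 0.75 (*Rrm2*) and 1.23 (*Tk1*). The remaining terms were those of *E2f1* (1.37), *Foxm1* (0.46) and *Ccnd2* (-0.57). The calls of *Fen1*, *Foxm1*, *Mcm2* and *Rrm1* were lost without TgUmodC147W F1 replicate 2.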

How the results depend on the processing

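Values under the alternatives to the genotype and age comparisons were counted for the members named in full, most of them picked for large differences. Of these 1397 values, 1281 kept their direction and side of the threshold, 99 were no longer past it, 17 were newly past it and 0 turned direction. Other members lost calls too. In F1, 8 of 24 calls over all members were lost without TgUmodC147W F1 replicate 2. The number of members that rose in M1 was 12 with median scaling and 4 to 9 with any array left out, and the number that fell was 1 in a fit over all 24 arrays. With the spline values, no background correction or an offset of 50, 3 fell in M1. In F2, 9 rose without the detection filter, 9 among members detected in both genotypes (chosen after seeing the data), and 9 to 14 with an array left out. From F1 to F2 in TgUmodwt, 15 to 26 fell with an array left out. The term of genotype by age had 0 members above 0 past the test with the spline values, no background correction, median scaling, an offset of 50, no filter, the mean of probes or the replicate block, and 0 to 1 with an array left out. It had 1 below 0 without the filter, 7 in a fit over 24 arrays and 1 to 4 with an array left out. In F1, 16 to 28 rose with an array left out, fewest without TgUmodC147W F1 replicate 2 and most without TgUmodC147W F1 replicate 3. The term of genotype by sex had 0 to 1 members below 0 with an array left out. The causes were not tested. The sex comparisons were chosen after seeing the data.

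With the replicate number as a block, members risen and fallen were 8 and 2 in M1, 22 and 0 in F1, 11 and 0 in F2, 0 and 25 with age in TgUmodwt, 0 and 30 with age in TgUmodC147W, and 0 and 3 for genotype by age. Only in the comparison of F1 and F2 in TgUmodwt did all same-numbered arrays correlate above 0.1, and the sample titles state no pairing. In the others, same-numbered arrays correlated at -0.019 to 0.114 (M1), -0.142 to 0.039 (F1), -0.095 to 0.291 (F2) and -0.088 to -0.066 (age in TgUmodC147W).

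Median scaling moved the median of all probes by 0.15 with age in TgUmodwt and by less than 0.1 in the other comparisons (from 0.02 to 0.105 in M1). The share of calls over all genes that were higher went from 58.7% to 71.4% in M1, from 46.9% to 83.9% and from 47.1% to 65.0% with age in TgUmodwt and TgUmodC147W and from 62.1% to 40.7% for genotype by age. Genes higher and lower went from 534 and 300 to 387 and 402 in F2, and from 384 and 405 to 239 and 585 for genotype by sex. Over members it went from 20.0% to 0.0% for genotype by age. Bead chips are not given in the sources used here, so a chip block was not run. Members near background, such as *Pcna*, *Cdc6* in F2 and *Aurka* in F2, have levels limited by signal over background.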
